A study of Mus musculus with 12 samples.

Results

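Dbp, Tef and Hlf make up the family of proline and acidic amino acid-rich basic leucine zipper (PAR bZIP) transcription factors. They were followed through a hippocampal RNA sequencing series in mice, together with Nfil3, which encodes a repressor that acts at the same DNA element. The genes were taken by symbol, whatever their levels, so 4 of the 23329 genes in the files are described, and 4 of 4 passed the filter on low counts that kept 14131 genes for testing. Polyadenylated RNA had been sequenced from the hippocampus of adult C57BL/6 mice that lacked NONO (KO) or were wild type (WT). NONO is an RNA- and DNA-binding protein known to bind the PER proteins of the circadian clock. The 12 libraries form 4 groups of 3: KO CT22, WT CT22, KO CT10 and WT CT10. The labels do not spell out CT, do not name the KO allele and do not tie a library to an animal. The p-values below therefore speak of the spread among these libraries, part or all of which could be technical.

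PAR bZIP proteins activate genes that carry a D-box, and NFIL3 (also called E4BP4) represses through the same element. In the clock loop, CLOCK and ARNTL drive Dbp through E-boxes, and the nuclear receptors REV-ERB alpha and beta (Nr1d1 and Nr1d2) repress Arntl and Nfil3, so that in many tissues Dbp and Nfil3 peak at opposite times of the cycle. In brain and liver, the 3 PAR bZIP factors are known for their control of vitamin B6 metabolism and of detoxification genes, and mice without all of them have seizures.

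Dbp and Nfil3 are shown by the 250 bases before their transcript starts because their WT CT22 and WT CT10 libraries did not overlap. Dbp was lower and Nfil3 higher in WT CT22, but neither change passed its test, and 16.2% of genes tested did not overlap either. Tef is shown by both of its start regions because its transcripts divided differently in the WT CT22 libraries. That division was not tested, and 10.6% of 963 genes with a comparable pair of transcripts had WT groups that did not overlap. The windows are those of the RefSeq promoter table (build GRCm38.p6, matched for 4 of 4 genes), on the strand of the gene, 5′ to 3′, and lie at chr7:45704997-45705246 for Dbp (plus strand), chr13:52981040-52981289 for Nfil3 (minus strand), chr15:81802423-81802672 for the upstream Tef start and chr15:81811164-81811413 for the downstream one (plus strand). Capitals mark an E-box.
Dbp: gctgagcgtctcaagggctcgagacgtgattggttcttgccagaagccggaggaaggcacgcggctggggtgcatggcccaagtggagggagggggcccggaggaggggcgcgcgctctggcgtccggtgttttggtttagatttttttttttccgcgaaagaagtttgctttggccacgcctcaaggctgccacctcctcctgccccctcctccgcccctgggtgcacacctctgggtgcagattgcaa
Nfil3: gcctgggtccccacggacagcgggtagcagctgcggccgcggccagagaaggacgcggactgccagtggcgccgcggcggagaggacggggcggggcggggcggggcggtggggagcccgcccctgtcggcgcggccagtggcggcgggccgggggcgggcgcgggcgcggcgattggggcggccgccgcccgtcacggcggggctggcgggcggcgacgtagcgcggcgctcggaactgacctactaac
Tef, upstream start: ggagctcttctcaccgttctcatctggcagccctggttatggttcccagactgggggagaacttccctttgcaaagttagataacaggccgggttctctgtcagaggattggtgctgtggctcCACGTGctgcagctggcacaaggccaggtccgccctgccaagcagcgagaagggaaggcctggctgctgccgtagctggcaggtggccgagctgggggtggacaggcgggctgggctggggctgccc
Tef, downstream start: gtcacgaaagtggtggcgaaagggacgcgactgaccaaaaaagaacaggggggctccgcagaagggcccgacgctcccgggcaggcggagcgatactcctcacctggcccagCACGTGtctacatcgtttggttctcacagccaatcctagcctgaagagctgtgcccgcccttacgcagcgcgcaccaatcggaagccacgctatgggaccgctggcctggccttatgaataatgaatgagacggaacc

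Each Tef window held the E-box CACGTG, with its first base 127 bases before the upstream start and 138 bases before the downstream start, and 6.02% of the 32851 promoter windows in the table held that motif. Hlf, whose window is not shown, held the cAMP response element TGACGTCA with its first base 9 bases before the start, as did 1.55% of all windows. The D-box TTANGTAA (2.06% of windows) and the REV-ERB and ROR response element (RORE, 0.177% of windows) were not found in any of the 5 windows of these genes, and the Dbp and Nfil3 windows held none of the 4 motifs. All 4 motifs were searched on both strands, and no match overlapped another. A match is a description of letters, and a missing match speaks only of these 250 bases.

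Per the files' gene models (mm10), Dbp lies on chromosome 7 at 45705247 to 45710203 with 4 exons, and shares part of that interval with Sphk2 on the other strand. Tef spans 81802673 to 81826863 on chromosome 15 and overlaps the antisense gene Gm17597. Hlf lies at 90336535 to 90390917 on chromosome 11 with 4 exons, and Nfil3 at 52967209 to 52981039 on chromosome 13 with 2 exons. The sources do not state whether counting used the strand. Reads in the stretches that Dbp and Tef share with their overlapping partners therefore cannot be told apart from those of the partners.

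Library totals ran from 4435606 estimated counts in KO CT22 replicate 2 to 10911046 in WT CT22 replicate 3. Nono had 0 to 4 counts in the KO libraries and 1147 to 1814 in the WT libraries, which matched the genotype labels. Hippocampal markers were present throughout, with Slc17a7 at 1489 to 1990.0 CPM, Prox1 at 45.3 to 148 CPM and Wfs1 at 128 to 227 CPM (CPM, counts scaled for depth with TMM factors). Choroid plexus markers varied most, with 10 of 10 listed genes measured, none at 0, and sums of 227 to 5195 CPM in KO CT22, 390.0 to 2156 in WT CT22, 368 to 4803 in KO CT10 and 333 to 2060.0 in WT CT10; their part in the results was not tested. In such tissue RNA, fewer cells of a type and less RNA per cell cannot be told apart.

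A pair of KO libraries went against their CT labels by the clock genes that are not among the 4. Nr1d1, which encodes REV-ERB alpha, stood at 125, 67.0 and 72.4 CPM in KO CT22 replicates 1 to 3 and 81.3, 69.3 and 76.7 CPM in WT CT22, against 112, 117 and 72.7 CPM in KO CT10 and 113, 108 and 110.0 CPM in WT CT10. The library labelled KO CT22 replicate 1 thus lay with the CT10 libraries, and the library labelled KO CT10 replicate 3 with the CT22 libraries. Gm129, the symbol the files use for the clock repressor Ciart, gave 11.6, 6.05 and 6.16 CPM in KO CT22 and 6.70, 5.16 and 8.62 CPM in WT CT22, against 12.1, 12.3 and 6.76 CPM in KO CT10 and 16.1, 14.5 and 14.5 CPM in WT CT10, with the same libraries out of place. Of 22 core clock genes, 10 had WT groups that did not overlap, against 16.2% of all genes tested. The gap could be narrow, as for the kinase gene Csnk1e, with 83.4 to 87.4 CPM in WT CT10 and 88.9 to 104 CPM in WT CT22. At the 10 genes, the library labelled KO CT22 replicate 1 was nearer the WT CT22 mean for 3 genes and the other KO CT22 libraries for 8 each. The library labelled KO CT10 replicate 3 was nearer the WT CT22 mean for 7 genes, and KO CT10 replicates 1 and 2 for 2 and 4. Results are therefore given with all 12 libraries and without these 2, a choice made after the data were seen. The clock genes placed these libraries, and Dbp and Nfil3 belong to the same circuit. Values of any of these genes without the 2 libraries are thus not independent of that choice. The library labelled KO CT22 replicate 1 also stood apart in tissue markers. Its dentate granule cell sum of 554 CPM was the highest of the 12 libraries, with 361 CPM next. Its CA1 (537), interneuron (771) and oligodendrocyte (3393) sums were the lowest, with 547, 814 and 3978 CPM next. The part of this make-up in the clock genes and the members was not tested.

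**Figure D1:**
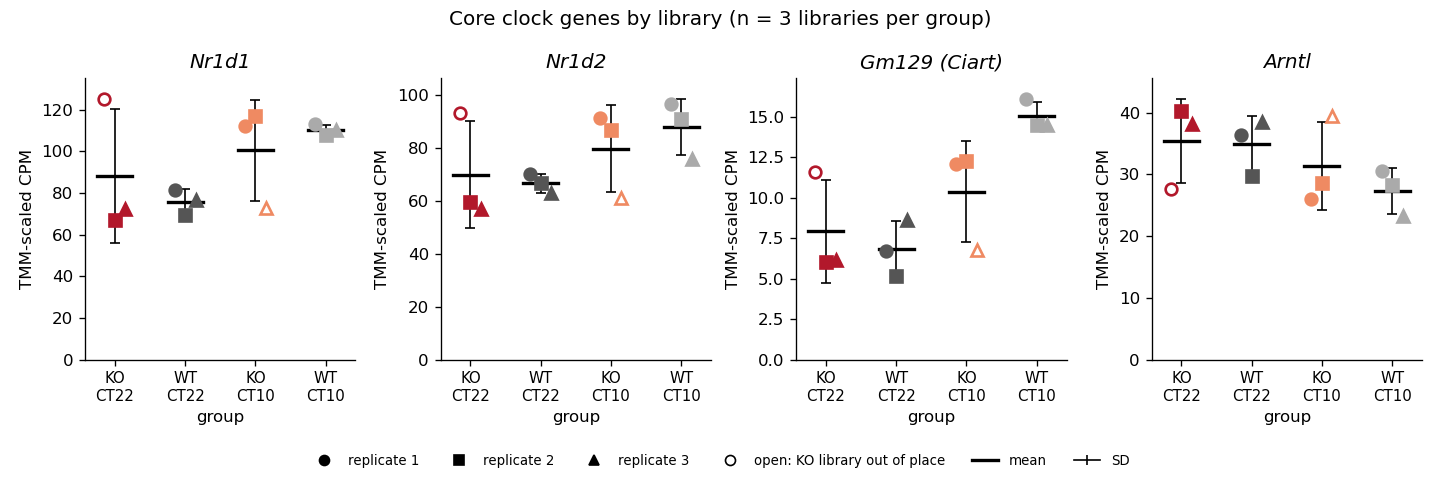
TMM-scaled CPM of Nr1d1, Nr1d2, Gm129 (Ciart) and Arntl in each library by group, with group mean and SD (n = 3 libraries); open symbols are the libraries labelled KO CT22 replicate 1 and KO CT10 replicate 3. The open circle lies with the CT10 libraries (Nr1d1 at 125 CPM) and the open triangle with the CT22 libraries (Nr1d1 at 72.7 CPM).

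Dbp, the PAR bZIP gene with the widest daily swing in most tissues, was the member that varied most. It had 90.9, 32.3 and 32.9 CPM in KO CT22 replicates 1 to 3 and 43.2, 50.5 and 59.6 CPM in WT CT22, against 93.7, 106 and 33.6 CPM in KO CT10 and 80.6, 70.5 and 95 CPM in WT CT10. The WT groups did not overlap, while the KO groups exchanged 1 library each, the same libraries that the clock genes placed against their labels. In order of the group means, WT CT10 had 82.1 ± 12.3 CPM, KO CT10 77.6 ± 38.6, KO CT22 52.0 ± 33.7 and WT CT22 51.1 ± 8.20 (SD, n = 3 each), and no neighbours in that order differed beyond their spread.

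With all 12 libraries, Dbp did not pass the edgeR quasi-likelihood test in any CT comparison. CT22 over CT10 came to a log2 change of -0.54 (SE 0.50, adjusted p = 0.977) in KO, -0.68 (SE 0.49, adjusted p = 0.759) in WT and -0.61 (SE 0.35, adjusted p = 0.991) over both genotypes, where edgeR was used with Benjamini-Hochberg adjustment over all genes. With all 12 libraries fitted, none of the 4 members was called in these 3 comparisons. At an unadjusted p under 0.05 stood 0 of 4, and DESeq2 called 0 of 4. The background was the same, with 0.0% of 14131 genes called in each (447 genes in KO, 955 in WT and 549 over both genotypes at an unadjusted p under 0.05, and 0, 4 and 1 called by DESeq2). The libraries of the WT groups did not overlap for 2 of the 4 members, Dbp (lower at CT22) and Nfil3 (higher at CT22), against 16.2% of all genes tested. Between the KO groups 0 of 4 members were free of overlap, against 7.96% of genes, and over both genotypes 0 of 4, against 0.149%.

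The libraries labelled KO CT22 replicate 1 and KO CT10 replicate 3 were left out after clock genes of the same circuit had placed them. The edgeR p, calls and overlaps of Dbp without them therefore describe the libraries kept, and no test is read from them. In the libraries kept, Dbp was lower at CT22. It averaged 32.6 ± 0.417 CPM in the remaining KO CT22 libraries and 99.6 ± 8.37 CPM in the remaining KO CT10 libraries (SD, n = 2 each). The log2 change was -1.14 over both genotypes (SE 0.11, edgeR adjusted p = 0.000603), a fold of 0.453, with each of 5 CT22 libraries below each of 5 CT10 libraries. Markers of the neocortex (Cux2, Tbr1, Fezf2 and Tshz2) stood higher in the KO libraries with low Dbp, with sums of 245 and 206 CPM in KO CT22 and 267, 117 and 154 CPM in WT CT22, against 161 and 134 CPM in KO CT10 and 121, 139 and 106 CPM in WT CT10. The libraries left out had 163 CPM (labelled KO CT22 replicate 1) and 256 CPM (labelled KO CT10 replicate 3). The part of these markers in the Dbp and Nfil3 values was not tested. By edgeR, 1 of 4 members was called, against 0.0633% of 14228 genes. In KO the change was -1.61 (SE 0.17, edgeR adjusted p = 0.00261), and 1 of 4 members was called against 0.00703% of genes. In WT, whose libraries were the same as before, it was -0.67 with a smaller SE of 0.13 and an edgeR adjusted p of 0.187. An edgeR fit of the 6 WT libraries alone gave an adjusted p of 0.33. The difference between the CT changes in KO and WT was -0.94 (SE 0.21, edgeR adjusted p = 0.873), which did not pass.

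**Figure D2:**
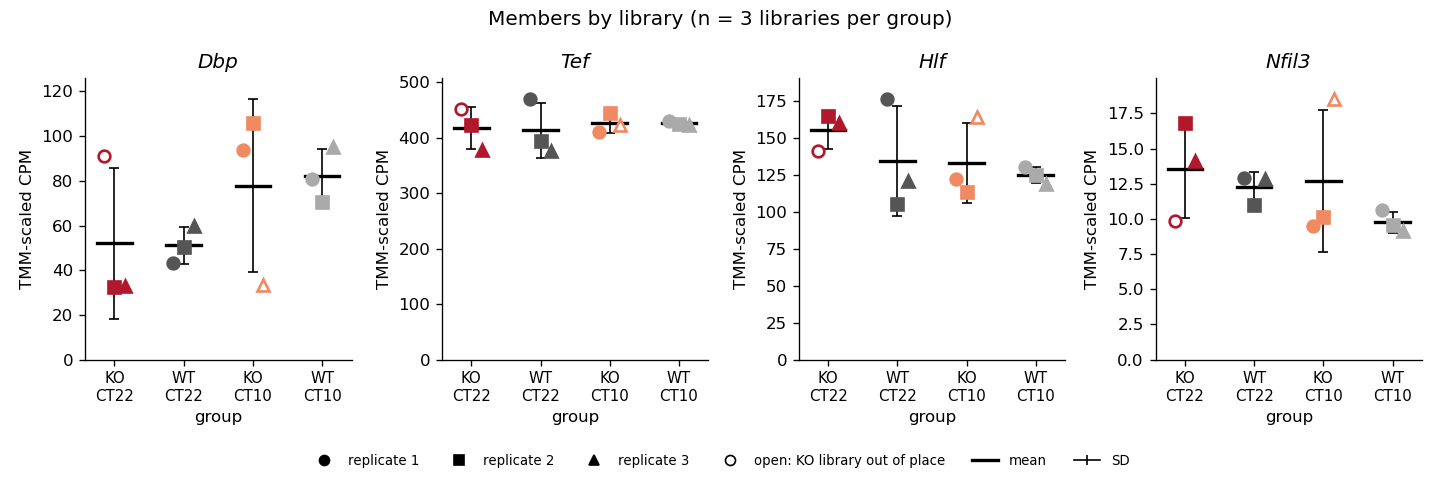
TMM-scaled CPM of Dbp, Tef, Hlf and Nfil3 in each library by group, with group mean and SD (n = 3 libraries); open symbols are the libraries labelled KO CT22 replicate 1 and KO CT10 replicate 3. Dbp is low and Nfil3 high in WT CT22 relative to WT CT10, the open symbols lie apart from the other libraries of their groups for Dbp and Nfil3, and Tef stays between 376 and 469 CPM.

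Nfil3, the repressor of the set, was scarce. It had 9.82, 16.8 and 14.1 CPM in KO CT22 replicates 1 to 3 and 12.9, 11.0 and 12.8 CPM in WT CT22, against 9.52, 10.1 and 18.5 CPM in KO CT10 and 10.6, 9.58 and 9.11 CPM in WT CT10. Each WT CT22 library was above each WT CT10 library, and in KO the library labelled KO CT10 replicate 3 had the highest level of the 12 and the library labelled KO CT22 replicate 1 was among the low ones. These values rest on 62 to 159 counts a library, so counting alone allows 47.5 to 79.5 counts for the smallest (exact Poisson interval, 95%, counting error only). By group mean, KO CT22 had 13.6 ± 3.53 CPM, KO CT10 12.7 ± 5.03, WT CT22 12.2 ± 1.09 and WT CT10 9.76 ± 0.766 (SD, n = 3 each). Of the neighbours in that order, KO CT22 and KO CT10, and KO CT10 and WT CT22, differed by less than their SD, while WT CT22 and WT CT10 differed by more than either SD and did not overlap.

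The CT22 over CT10 log2 change of Nfil3 was 0.06 in KO (SE 0.24, edgeR adjusted p = 0.993), 0.33 in WT (SE 0.24, edgeR adjusted p = 0.757) and 0.19 over both genotypes (SE 0.17, edgeR adjusted p = 0.991). Without the 2 KO libraries it was 0.49 over both genotypes (SE 0.12), with an unadjusted p of 0.000871 and an edgeR adjusted p of 0.171, and 0.64 in KO (SE 0.18, edgeR adjusted p = 0.606). Dbp and Nfil3 were then the 2 of 4 members whose 5 CT22 libraries did not overlap the 5 CT10 libraries, against 2.27% of genes. This again describes only the libraries kept. Within KO alone Dbp, Hlf and Nfil3 did not overlap, 3 of 4 members against 35.4% of genes, a share that is high because 2 libraries were set against 2.

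Tef, known for a shallower rhythm than Dbp, had the steadiest level of the 4. It gave 452, 422 and 377 CPM in KO CT22 replicates 1 to 3 and 469, 394 and 376 CPM in WT CT22, against 410.0, 445 and 422 CPM in KO CT10 and 430.0, 425 and 422 CPM in WT CT10. All groups overlapped, and the group means in the same order were 417 ± 38.0, 413 ± 49.3, 426 ± 17.6 and 426 ± 3.81 CPM (SD, n = 3 each). The CT22 over CT10 log2 change over both genotypes was -0.04 (SE 0.07, edgeR adjusted p = 0.999), and -0.07 without the 2 KO libraries.

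The Tef counts could be divided between its pair of transcripts, which start at 81802673 and 81811414 on chromosome 15 and share their last 3 exons, so that the division rests on reads from first exons of 214 and 307 bases. The form from the upstream start made up 57.9%, 50.6% and 54.3% of Tef counts in KO CT22 replicates 1 to 3 and 62.8%, 63.0% and 65.3% in WT CT22, against 56.9%, 50.4% and 57.2% in KO CT10 and 49.5%, 58.9% and 50.0% in WT CT10. The 3 WT CT22 libraries were above the other 9. Their mean was 63.7% ± 1.39, beside 54.3% ± 3.65 in KO CT22, 54.8% ± 3.84 in KO CT10 and 52.8% ± 5.29 in WT CT10 (SD, n = 3 each). Of 963 genes with a comparable pair of transcripts, 10.6% had WT groups that did not overlap between CT labels and 13.5% had KO and WT groups that did not overlap at CT22. The Tef shares overlapped between the KO groups (background 9.66%) and between KO and WT at CT10 (background 11.5%). By group mean, WT CT22 had both the highest upstream level of the 4 groups (157 ± 23.9 TPM) and the lowest downstream level (87.5 ± 16.9 TPM, SD, n = 3 each). The upstream form had 164, 133 and 129 TPM in KO CT22 and 184, 146 and 140.0 TPM in WT CT22, against 145, 130.0 and 148 TPM in KO CT10 and 126, 153 and 127 TPM in WT CT10. The downstream form had 116, 127 and 106 TPM in KO CT22 and 106, 83.9 and 72.7 TPM in WT CT22, against 107, 125 and 108 TPM in KO CT10 and 126, 104 and 124 TPM in WT CT10. The high share of WT CT22 replicate 1 came with the highest upstream value of the 12 libraries and a downstream value within the range of the other groups, while WT CT22 replicates 2 and 3 had the lowest downstream values. No test was run on the share, since the authors' estimates of a form carry an error that the files do not give.

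**Figure D3:**
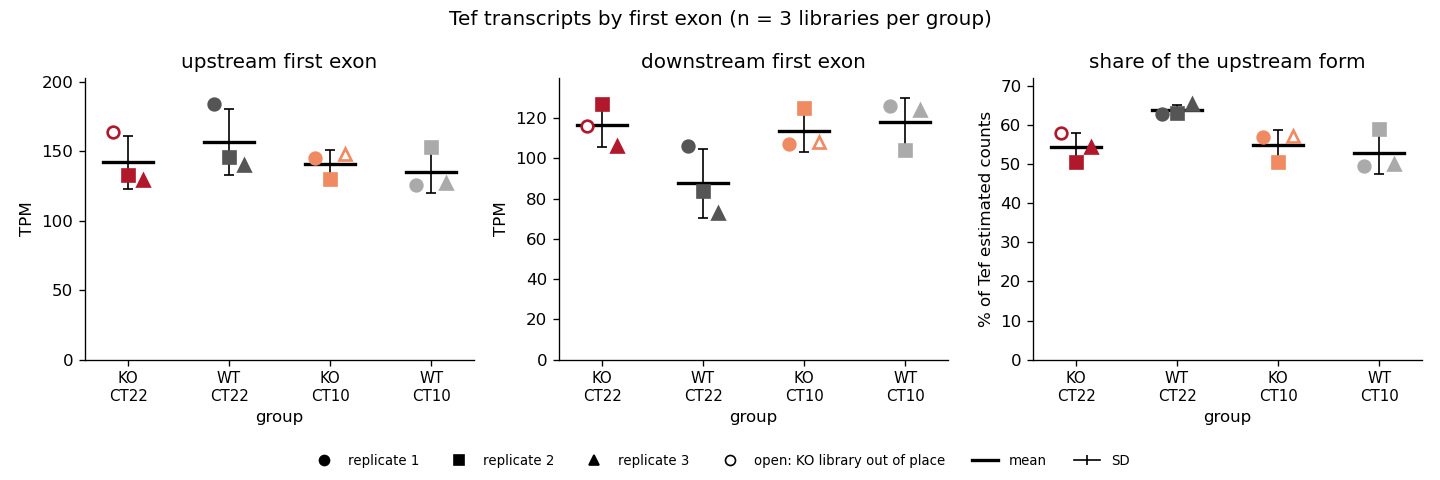
TPM of the Tef transcripts with the upstream and the downstream first exon, and the upstream share of Tef estimated counts in percent, per library by group with mean and SD (n = 3 libraries). The WT CT22 libraries sit at 62.8% to 65.3% on the right panel, above the other 9 libraries at 49.5% to 58.9%.

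Hlf, the PAR bZIP gene first known as hepatic leukemia factor, had 141, 165 and 160.0 CPM in KO CT22 replicates 1 to 3 and 176, 105 and 121 CPM in WT CT22, against 122, 113 and 164 CPM in KO CT10 and 130.0, 125 and 119 CPM in WT CT10. WT CT22 replicate 1 was the highest of the 12 and WT CT22 replicate 2 the lowest, so that group alone covered the whole range. By group mean KO CT22 had 156 ± 12.7 CPM, WT CT22 134 ± 37.3, KO CT10 133 ± 27.5 and WT CT10 125 ± 5.68 (SD, n = 3 each), and all neighbours in that order overlapped. The CT22 over CT10 log2 change was 0.16 over both genotypes (SE 0.12, edgeR adjusted p = 0.991) and 0.29 without the 2 KO libraries (SE 0.12, edgeR adjusted p = 0.408).

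Hlf levels ran with markers of the neocortex, the tissue that lies over the hippocampus. Of 6 neocortex markers used, 5 were matched by symbol (Lamp5 was not) and none was at 0, with sums of 176 to 257 CPM in KO CT22, 127 to 283 in WT CT22, 147 to 271 in KO CT10 and 116 to 152 in WT CT10. The 4 of them that are not clock genes (Cux2, Tbr1, Fezf2 and Tshz2) summed to 267, 117 and 154 CPM in WT CT22 replicates 1 to 3, where Hlf was high, low and low. Over the 12 libraries the log2 levels gave Pearson's r = 0.91 (permutation p = 0.0002, adjusted p = 0.00112 over 18 relations) and Spearman's rho = 0.87 (permutation p = 0.0004, adjusted p = 0.00252). The r was 0.84 without the libraries farthest from the median of Hlf, 0.94 in the 6 KO libraries and 0.89 in the 6 WT libraries. The part of these markers in the Hlf levels was not tested. Nfil3 had an r of 0.80 and Dbp of -0.75 with the same sum, with permutation p of 0.00198 and 0.00717 (adjusted 0.00509 and 0.0161), but their rho of 0.66 and -0.64 had adjusted permutation p of 0.0525 and 0.0533. In the 6 KO libraries the r was 0.95 for Nfil3 and -0.94 for Dbp, and in the 6 WT libraries 0.74 and -0.74.

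KO against WT, the comparison of the study's title, gave no call for any of the 4. Over both CT labels the log2 change was -0.01 for Dbp (SE 0.35), 0.0075 for Tef (SE 0.07), 0.15 for Hlf (SE 0.12) and 0.25 for Nfil3 (SE 0.17), with edgeR adjusted p of 0.826 to 0.997. The count was 0 of 4 members with edgeR, 0 of 4 at an unadjusted p under 0.05 and 0 of 4 with DESeq2, against 0.0212% of genes called with edgeR, 6.35% (897 genes) at an unadjusted p under 0.05 and 22 genes with DESeq2. The authors' deposited table gave -0.04 for Dbp, 0.15 for Hlf and 0.23 for Nfil3 on the log2 scale, with adjusted p of 0.975 to 1. At CT22 the changes were 0.06 for Dbp, 0.01 for Tef, 0.21 for Hlf and 0.12 for Nfil3, and 0 of 4 were called against 0.0142% of genes. At CT10 they were -0.08, 0.00059, 0.09 and 0.39 in the same order, and 0 of 4 were called against 0.00708%. The Nfil3 change at CT10 rests on the library labelled KO CT10 replicate 3: it was 0.0062 without that library, 0.0033 without both KO libraries, and 0.34 to 0.57 without each other library in turn. Over both CT labels it was 0.062 without the same library. No member was free of overlap in these comparisons (background 0.446% over both CT labels, 13.7% at CT22 and 10.3% at CT10).

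Without the 2 KO libraries the KO over WT change of Dbp at CT22 was -0.66 (SE 0.16, fold 0.634), where 32.3 and 32.9 CPM in KO stood against 43.2 to 59.6 CPM in WT. Its unadjusted p was 0.000993 and its edgeR adjusted p 0.524, so it did not pass. At CT10 the change was 0.28 (SE 0.14, edgeR adjusted p = 1). Nfil3 at CT22 had 16.8 and 14.1 CPM in KO against 11.0 to 12.9 CPM in WT, a log2 change of 0.31 (SE 0.16, edgeR adjusted p = 0.6). Dbp and Nfil3 were the 2 of 4 members without overlap there, against 24.3% of genes; at CT10 and over both CT labels it was 0 of 4, against 18.3% and 1.04%.

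**Figure D4:**
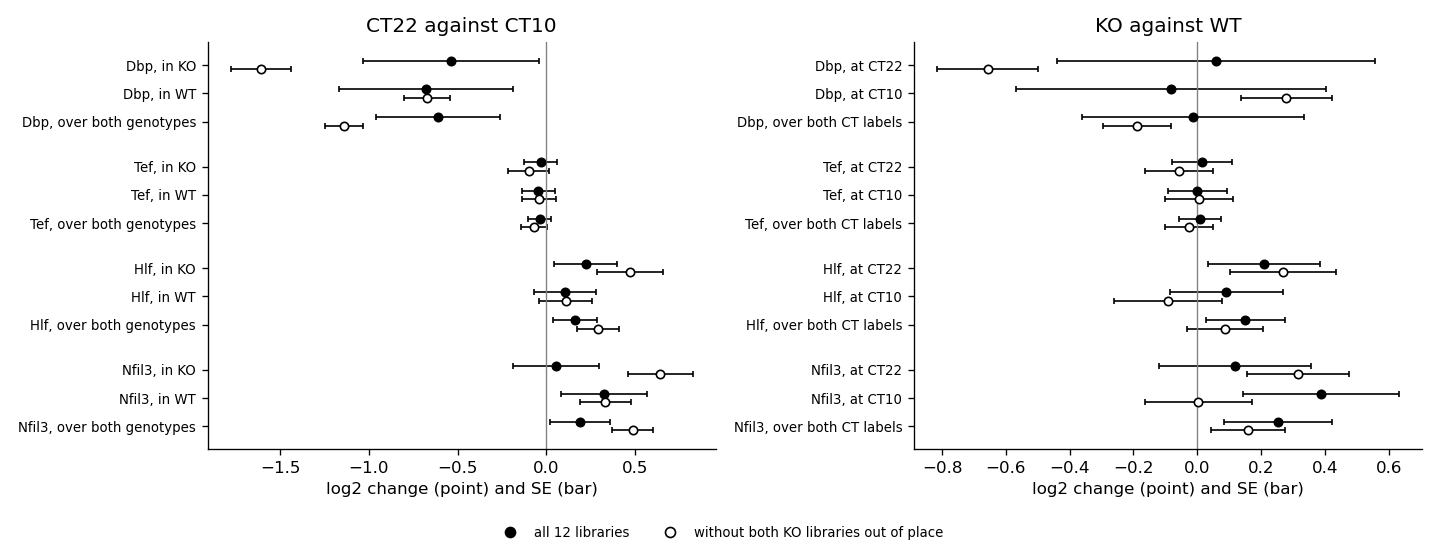
Log2 change (point) and SE (bar) of each member from edgeR, CT22 over CT10 on the left and KO over WT on the right, with all 12 libraries (filled) and without the libraries labelled KO CT22 replicate 1 and KO CT10 replicate 3 (open). Leaving them out moves Dbp over both genotypes to -1.14 against -0.61 with all libraries and narrows its SE to 0.11, while Tef stays near 0.

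Dbp was low in the libraries where Nfil3 was high. Their log2 levels gave Pearson's r = -0.90 (permutation p = 8e-05, adjusted p = 0.00072) and Spearman's rho = -0.87 (permutation p = 0.00042, adjusted p = 0.00252) over the 12 libraries. The r was -0.87 without the libraries of lowest Dbp, -0.94 in KO and -0.79 in WT. In the 6 libraries with 70.5 to 106 CPM of Dbp, Nfil3 kept to 9.11 to 10.6 CPM, and in the 6 with 32.3 to 59.6 CPM of Dbp it spread over 11.0 to 18.5 CPM. Within the first 6 the r was -0.08 and the rho -0.20 (exact permutation p = 0.883 and 0.714), and within the other 6 the r was -0.76 and the rho -0.77 (exact permutation p = 0.0903 and 0.103, not adjusted). The pooled r therefore rests on the difference between these sets, and no relation passed a test within either. The 2 KO libraries fell one in each set, with Dbp at 90.9 and Nfil3 at 9.82 CPM in the library labelled KO CT22 replicate 1, and 33.6 and 18.5 CPM in the library labelled KO CT10 replicate 3.

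Nr1d1 divided the same libraries. The 6 with 108 to 125 CPM of Nr1d1 were those with 70.5 CPM or more of Dbp, and the 6 with 67.0 to 81.3 CPM were the others. Since Nr1d1 formed separate clusters, no pooled r is read from it: within the upper 6 libraries Dbp and Nr1d1 gave r = 0.46 and rho = 0.31 (exact permutation p = 0.371 and 0.564), and within the lower 6 r = 0.41 and rho = 0.54 (exact permutation p = 0.426 and 0.297). Arntl, which encodes the CLOCK partner BMAL1, separated less evenly, with 23.2 to 30.5 CPM in 7 libraries and 36.3 to 40.3 CPM in 5. Nfil3 stood at 9.11 to 11.0 CPM in those 7 and at 12.8 to 18.5 CPM in those 5. Within the 7, Nfil3 and Arntl gave r = 0.88 and rho = 0.93 (exact permutation p = 0.00754 and 0.00675), while Dbp and Arntl gave r = -0.47 and rho = -0.50 (exact permutation p = 0.281 and 0.267). These p within clusters are not adjusted. Nfil3 rests on 62 to 100 counts in the 7 libraries, and counting alone allows 47.5 to 79.5 counts for the smallest. The part of counting error in its relation with Arntl was not tested.

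**Figure D5:**
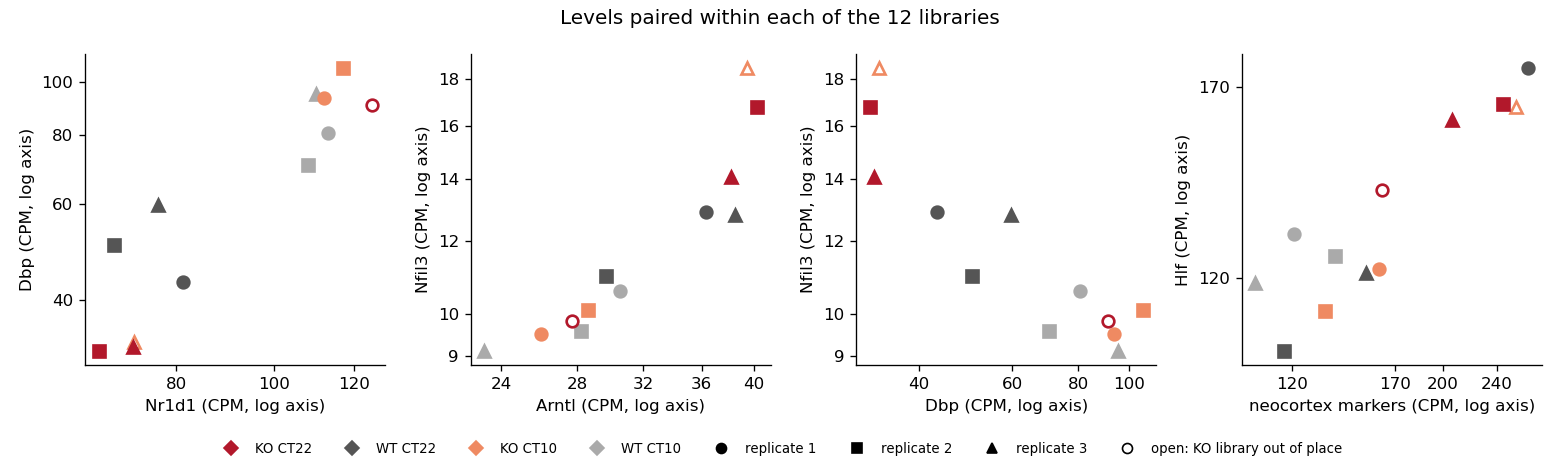
Each point is a library, on log axes of TMM-scaled CPM: Dbp against Nr1d1, Nfil3 against Arntl, Nfil3 against Dbp, and Hlf against the sum of 4 neocortex markers; open symbols are the libraries labelled KO CT22 replicate 1 and KO CT10 replicate 3. Nr1d1 forms 2 clusters of 6 libraries, which also differ in Dbp, and the open circle lies with the CT10 libraries in the first 3 panels.

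Other relations among the members were looser. Dbp and Hlf gave r = -0.70 (permutation p = 0.0141, adjusted p = 0.0254) and rho = -0.66 (permutation p = 0.0233, adjusted p = 0.0525), with r = -0.92 in KO and -0.40 in WT. Within the same sets of 6, Dbp and Hlf gave r = -0.44 in the upper and -0.75 in the lower (exact permutation p = 0.367 and 0.0736). Hlf and Nfil3 gave r = 0.72 (permutation p = 0.00936, adjusted p = 0.0187) and rho = 0.60 (permutation p = 0.042, adjusted p = 0.0687). Tef reached an adjusted permutation p under 0.05 with none of the other members, nor with Nr1d1, Arntl or the neocortex sum.

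By likeness of log2 CPM over the 12 libraries among 12172 named genes of at least 2 CPM, the genes closest to Dbp were Slc35b2 (r = 0.936), the amino acid transporter gene Slc7a5 (0.935), the poly(A)-binding protein gene Pabpc1 (0.928), Fkbp10 (0.924), Glt25d1 (0.917) and Nr1d1 (0.916). Of the core clock genes ranked, Nr1d2 came 23rd and Per3 32nd in that order. Gm129 (Ciart) was not ranked, since symbols of its form were skipped. For Nfil3, Arntl was the closest of all (0.921), before Ier5 (0.909) and Clstn1 (0.908). Filip1l (0.956), the relaxin receptor gene Rxfp1 (0.95) and Plcxd2 (0.94) were closest to Hlf, and Diap1 (0.921), Gtf3c2 (0.851) and Eif4enif1 (0.808) to Tef. These values describe 12 libraries that share preparation, depth differences and tissue make-up. They are pooled r, which for Nr1d1 and Arntl include the difference between the clusters above, so the ranks alone are not read as a relation.

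Per transcript length, in the authors' TPM, Tef was the highest member in all 12 libraries, at 212 to 290.0 TPM, and Nfil3 the lowest, at 11.6 to 24.1 TPM. Dbp was second in 8 libraries and Hlf in 4, which were the library labelled KO CT10 replicate 3, KO CT22 replicates 2 and 3, and WT CT22 replicate 1. Dbp ran from 50.5 to 155 TPM and Hlf from 45.3 to 80.3 TPM. The share of Dbp in the summed TPM of the 3 PAR bZIP genes was 29.5%, 13.1% and 14.6% in KO CT22 and 15.6%, 21.5% and 24.7% in WT CT22, against 32.4%, 33.8% and 13.6% in KO CT10 and 28.4%, 25.9% and 32.3% in WT CT10. The summed PAR bZIP TPM was 37.5, 17.5 and 19.1 times that of Nfil3 in KO CT22 and 25.7, 25.6 and 22.5 times in WT CT22, against 36.3, 36.7 and 15.9 times in KO CT10 and 32.1, 34.0 and 38.6 times in WT CT10. In both measures the WT groups did not overlap, and the KO groups overlapped through the 2 libraries that went against their labels. For single genes, 16.2% of those tested had WT groups that did not overlap. Both measures are built from the member levels given above and add no separate result.

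The clock and D-box genes around the members were counted in the CT comparison over both genotypes. With all 12 libraries, edgeR called 0 of 22 core clock genes, 0 of 15 tested genes reported as PAR bZIP targets or D-box carriers (Nr1i3 did not pass the filter) and 0 of 10 other bZIP genes, and DESeq2 called none of them either. At an unadjusted p under 0.05 stood 3 core clock genes, Gm129 (-0.73), Nr1d1 (-0.36) and the kinase gene Csnk1e (0.14). Of these, Gm129 and Nr1d1 are also the 2 in the target list, and 0 of the other bZIP genes stood there, against 3.89% of all genes tested. The median log2 change of CT22 over CT10 was 0.03 in the core clock list, -0.05 in the target list and 0.05 in the other bZIP list, beside -0.0027 over all genes tested. For CT22 over CT10 within WT, the counts at an unadjusted p under 0.05 were 4, 4 and 1 in the same order, against 6.76% of genes. Within KO they were 0, 0 and 0, against 3.16%. For KO against WT over both CT labels, both tools again called 0 genes of these lists, with 0, 0 and 1 at an unadjusted p under 0.05, against 6.35% of genes.

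Without the 2 KO libraries, some of the 10 core clock genes that had placed those libraries came to log2 changes of -1.06 for Gm129 (SE 0.15), -0.63 for Nr1d1 (SE 0.07), -0.50 for Nr1d2 (SE 0.08) and -0.33 for Per3. Not every gene of the 10 fell. Over all 22 core clock genes, 13 changes were positive and 9 negative, with a median of 0.03. These values describe the libraries kept, and no test is read from them. Outside the genes used for the placement, Arntl came to 0.44 and the Clock paralogue Npas2 to 0.48, and neither passed edgeR's threshold. No target gene outside the core clock list passed, the metabolic ones included: the vitamin B6 kinase gene Pdxk came to 0.08, the heme synthesis gene Alas1 to -0.03 and the P450 reductase gene Por to -0.12. The other bZIP genes again gave 0 of 10 calls with edgeR. Of these 10, 1 gene, Fos (0.64), had an unadjusted p under 0.05, near the share of 10.9% over all genes tested. DESeq2 was not run without these libraries. Dbp had the largest change of the 9 genes under edgeR's threshold, though no test is read for Dbp or the placement genes. The remaining members of the 9 outside these lists were Hif3a (-0.93), Cldn5 (0.81), Lfng (-0.75), Mmp14 (0.73) and 1700084C01Rik (0.66).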

How the data were processed

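The submitters' processing notes name build mm10 and the tools TopHat 1.3.3, RSEM 1.2.5, edgeR 3.0.6 and FastQC, with no role for each. The authors deposited, per library, estimated counts, which need not be whole, and TPM for each transcript (per the file headers). Their deposited table of KO over WT has 1 log2 ratio with its p-value, raw and adjusted, for each gene. It also holds the normalised signal of 12 libraries, which the authors deposited and which was not used here.

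Estimated counts were summed per gene and rounded. edgeR 4.0.16 in R 4.3.3 removed low counts (filterByExpr by group, minimum 10), scaled by TMM (factors 0.979 to 1.02) and fitted robust quasi-likelihood models of 4 group means (8 residual degrees of freedom, biological coefficient of variation 12.3%). Benjamini-Hochberg adjustment ran over all 14131 genes, with a threshold of 0.05. The fit was tested on simulated data. CPM are TMM-scaled, and correlations used log2 CPM with a prior count of 2, 100000 permutations and two-sided tests; TPM of a gene is the sum over its transcripts. Alternatives were DESeq2 1.42.0, RLE size factors, no filter, a replicate block, fits of the groups compared, and leaving out libraries.

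Libraries were grouped by their titles. The members and the gene lists were chosen with earlier results of these data known. Named genes were the members, members of the lists that were called or are known partners in the loop, and the genes closest to each member by Pearson's r (6 for Dbp, 3 for the others). Symbols ending in Rik or made of Gm and a number, Gm129 among them, were skipped in that ranking. Genes named outside that rule were chosen after their values were seen. A listed neocortex marker and a core clock gene are not reported here, and the marker was left out of every neocortex value.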

Additional observations from a re-analysis of the deposited data

How the results depend on the processing

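Dbp, Tef, Hlf and Nfil3 were refitted in 7 comparisons under the alternatives, which gave 492 values, of which 441 kept their direction and 51 turned. Only 2 passed the edgeR threshold that had not passed before, Dbp over both genotypes (-1.14) and in KO (-1.61) between CT labels without the libraries labelled KO CT22 replicate 1 and KO CT10 replicate 3, an alternative added after the data were seen. That alternative also turned KO over WT to -0.026 for Tef over both CT labels, -0.66 for Dbp and -0.056 for Tef at CT22, and 0.28 for Dbp and -0.093 for Hlf at CT10, and the difference of the KO effect between CT labels to -0.94 for Dbp, -0.06 for Tef and 0.31 for Nfil3. Tef at CT10 turned to -0.002 with DESeq2, -0.0019 with RLE size factors and -0.0027 with no filter.

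Genes called for KO over WT over both CT labels, 3 of 14131, became 22 with DESeq2, 10 with no filter and 1 without the 2 KO libraries. At CT22 the 2 calls became 30 with DESeq2, 1 with the groups compared alone and 1 without the 2 libraries. At CT10 the 1 call became 3 with DESeq2 and 4 with the groups compared alone. Between CT labels the count of 0 became 1 with DESeq2 and 9 without the 2 libraries over both genotypes, 1 without the 2 libraries in KO, and 4 with DESeq2, 2 with the groups compared alone and 1 without the 2 libraries in WT. The cause was not tested.

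The labels do not say that replicate numbers pair the samples, and no general pairing was seen. Same-numbered libraries deviated together at a correlation over 0.1 in 4 of 18 pairs, and in 5 of 18 a library was most like its own number. Between WT CT10 and KO CT22 every library was most like its own number (r of 0.328, 0.0398 and 0.251). With the numbers as a replicate block, 1 gene was called for KO over WT over both CT labels and 1 at CT22, and Dbp at CT22 came to -0.058; the block changed no member's call.

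Leaving out each library in turn gave, for KO over WT over both CT labels, -0.37 to 0.17 for Dbp, -0.028 to 0.055 for Tef and 1 to 8 genes called. At CT22 it gave -0.66 to 0.31 for Dbp, -0.058 to 0.11 for Tef, -0.048 to 0.31 for Nfil3 and 1 to 4 genes called. At CT10 it gave -0.36 to 0.28 for Dbp, -0.033 to 0.032 for Tef and -0.09 to 0.20 for Hlf. The difference of the KO effect ran from -0.58 to 0.42 for Dbp, -0.06 to 0.11 for Tef, -0.029 to 0.35 for Hlf and -0.47 to 0.11 for Nfil3. CT22 over CT10 ran in KO from -0.099 to 0.036 for Tef and -0.13 to 0.44 for Nfil3, and in WT from -0.14 to 0.019 for Tef and -0.13 to 0.25 for Hlf, with 0 to 1 genes called; for Dbp it stayed below 0, from -1.25 to -0.26 in KO, -0.81 to -0.56 in WT and -0.96 to -0.47 over both genotypes, with adjusted p of 0.412 or more. Depth limits Nfil3 most, at 62 to 159 counts a library.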
